A study of Homo sapiens with 6 samples.

Results

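The genes described here are 55 that build, license and supply the DNA replication machinery. They were taken by symbol, each probe set of the array annotated with exactly 1 of these symbols was used, and the probe sets of a gene were averaged. All 55 were measured, by 143 probe sets, among 18132 genes in all. Values come from 6 Affymetrix expression arrays of U87, an established human glioma cell line grown in DMEM with fetal bovine serum. Cells of 3 arrays had received lentivirus carrying PCGF1-shRNA (a short hairpin RNA that lowers PCGF1), and cells of 3 a negative control (NC) lentivirus, so both groups share the cell line, the medium and a lentiviral treatment. The labels give the same name, PCGF1-shRNA, to all 3 knockdown arrays, so separate hairpins cannot be compared. They number the arrays of each group 1 to 3 as biological replicates. They also mark knockdown arrays T0 and control arrays T1 without explaining it, so that this mark cannot be told apart from the knockdown. No source says that the replicates came from separate cultures, and p-values then measure the spread between these arrays, which may be technical.

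PCGF1 is a RING finger subunit of the Polycomb complex PRC1.1, which represses genes through chromatin. DNA replication starts when the origin recognition complex, CDC6 and CDT1 load the ring-shaped MCM2 to MCM7 helicase onto DNA in G1 phase, a step called licensing. In S phase CDC45 and the GINS complex join each ring to form the active helicase, polymerases copy the strands, ribonucleotide reductase and its partner enzymes supply the nucleotides, and histone chaperones rebuild chromatin behind the fork. Transcripts of many of these genes peak around the G1/S transition under control of E2F factors, so their level in a culture depends on how many cells are cycling. In bulk RNA of this kind, fewer cells in that phase and less RNA per cell cannot be told apart.

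Each value is a log2 signal relative to the median of the 6 arrays for its probe set, so levels of different genes cannot be compared and only differences are set side by side below. PCGF1 itself, which checks the labels, was at -0.27, -0.13 and -0.19 in knockdown replicates 1 to 3 and at 0.13, 0.27 and 0.29 in the controls, with no overlap. This is 74.3% of the control level (95% interval 67.8 to 81.5%, limma adjusted p = 0.0041, exact permutation p = 0.1, the smallest possible with 3 against 3 arrays). PCGF1 was measured by 1 probe set only. The medians of the 6 arrays over all probe sets lay between -0.00238 and 0.00399. Among markers of other cells, 0 of 5 epithelial and 0 of 4 endothelial genes passed the test, and of 5 leukocyte genes LYZ fell by 0.19. At an unadjusted p under 0.05 (limma), 1 gene of each of these 3 lists differed. None of 7 glial and mesenchymal markers of glioma lines passed, 0 also at an unadjusted p under 0.05, and their presence or absence cannot be read from centred values. Summed centred values of the glioma line markers were -0.47 to -0.16 in knockdown and -0.12 to 0.53 in control arrays, and those of the endothelial markers -0.36 to -0.08 and -0.02 to 0.31. Of the 7 glioma line markers OLIG2 differed most (-0.23, limma adjusted p = 0.26), and only SOX2 was higher (0.07, adjusted p = 0.456). How often sums of other genes separate in this way was not counted. The ranges overlapped for the epithelial list (-0.35 to 0.50 and -0.23 to 0.15) and the leukocyte list (-0.32 to 0.11 and -0.02 to 0.13). The 3' minus 5' signal is a measure of RNA integrity, but from centred values it shows only differences between arrays. Whether the RNA was intact cannot be read from it. It was 0.01 to 0.11 in knockdown and -0.07 to 0.04 in control arrays for ACTB, and -0.01 to 0.04 and -0.01 to 0.01 for GAPDH. The part of markers and RNA integrity in the results below was not tested.

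Replication genes were lower in the PCGF1 knockdown arrays by small amounts. Of these 55 transcripts 20 fell and 1 rose, while 34 did not pass (36.4% lower and 1.82% higher, limma, adjusted p under 0.05 over all 18132 genes), where 4.63% of all genes were called lower and 6.36% higher. The 55 genes were chosen with earlier results of these data known, so the contrast with all genes is not independent of that choice. The median log2 difference between knockdown and control was -0.14, or 90.7% of the control level, against -0.01 for all genes tested. Differences ran from -0.42 for RPA2 to 0.16 for RPA1, and 51 of the 55 were below 0, as were 53.4% of all genes. In 37 genes each knockdown array was below each control array, and in 1 the reverse held, while 15.5% of all genes had their knockdown arrays all lower and 17.1% all higher. The number called lower depended on the arrays, being 8, 10 and 10 when knockdown replicates 1, 2 and 3 were left out in turn and 10, 7 and 9 when control replicates 1, 2 and 3 were. Over all genes the number called lower also dropped on leaving out an array, from 840 to between 395 and 590. The one rise was lost on leaving out any of the 6 arrays. At an unadjusted p under 0.05 (limma), 34 of the 55 genes were lower and 1, RPA1, was higher, where 12.4% of all genes were lower and 14.2% higher. Calls also changed with the probe sets used for all genes. Without probe sets ending in _s_at or _x_at, which can match transcripts of other genes, 11 of the 21 called genes kept their call. ORC1 and RFC2 had no other probe set and could not be judged there. GINS2, POLE2 and SLBP have none of that kind and lost the call at unchanged differences. With genes represented by their most variable probe sets, 7 kept it. ORC1, GINS2, PRIM1, POLE2 and RFC2, with 1 probe set each, lost it at unchanged differences. Over all genes 587 of the 16701 left were called lower in the first of these settings and 569 of 18132 in the second.

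**Figure D1:**
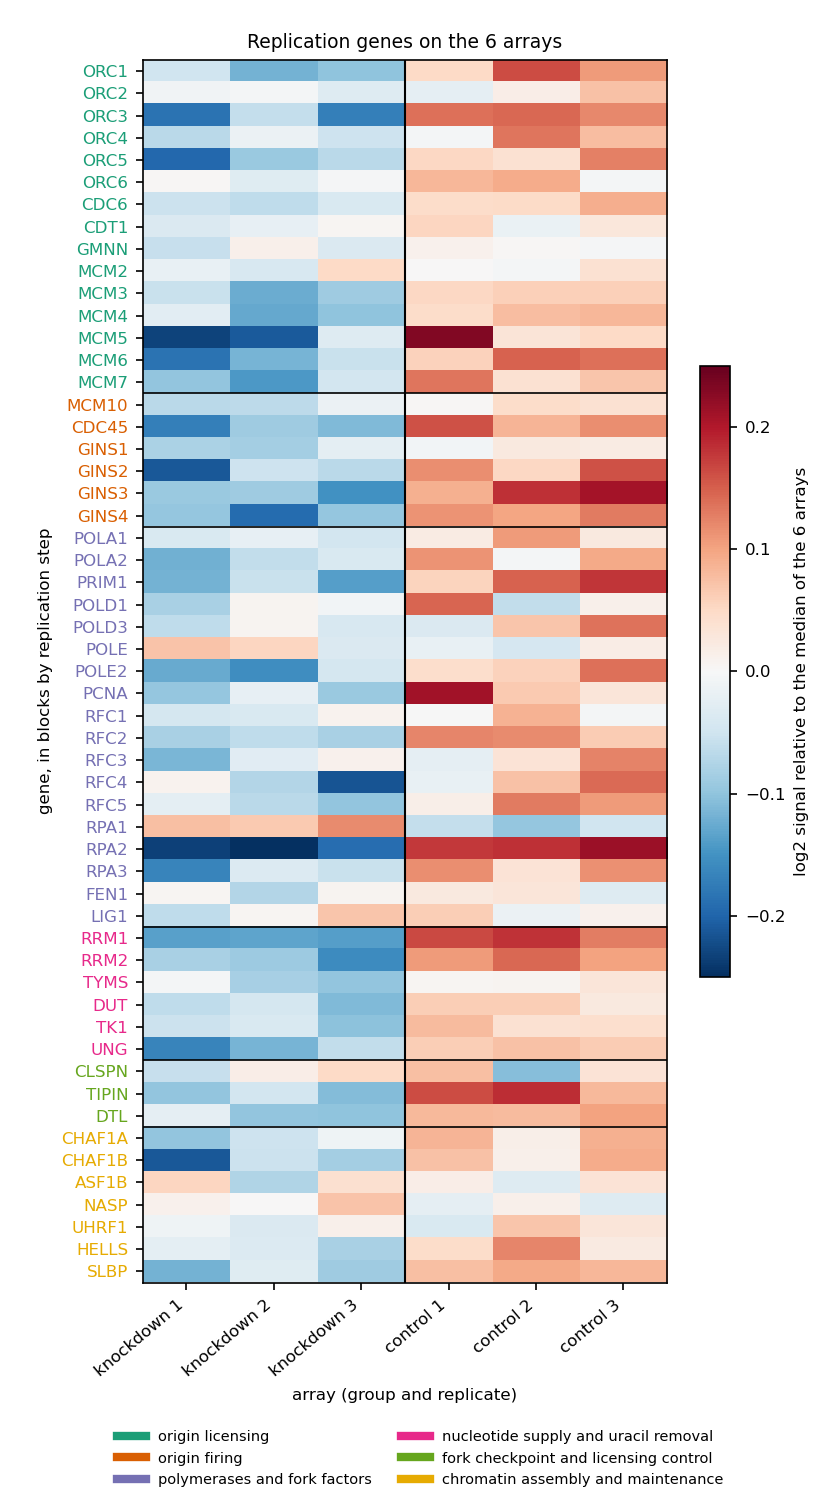
Log2 signal of the 55 replication genes (rows, in blocks by replication step) on each array (columns, 3 knockdown arrays left of the line and 3 control arrays right of it), relative to the median of the 6 arrays; the colour scale ends at -0.25 and 0.25. Most rows are blue on the left and red on the right, and RPA1 shows the opposite pattern.

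The arrays of a group resembled each other over these genes. The median over the 55 genes was -0.07, -0.06 and -0.06 in knockdown replicates 1 to 3 and 0.06, 0.06 and 0.07 in control replicates 1 to 3, giving group means of -0.06 ± 0.01 and 0.06 ± 0.01 (SD, n = 3 each). On knockdown replicates 1 to 3, 48, 47 and 44 of the 55 genes were below 0, and on control replicates 1 to 3, 11, 9 and 6 were. Knockdown replicate 1 held the lowest value of 22 genes, replicate 2 of 13 and replicate 3 of 15, and each control array that of 1 to 3 genes. Because values are centred on the median of the 6 arrays, low values in knockdown arrays go with high values in control arrays. The medians and counts of the groups are therefore not separate results, and such counts were not made over all genes.

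**Figure D2:**
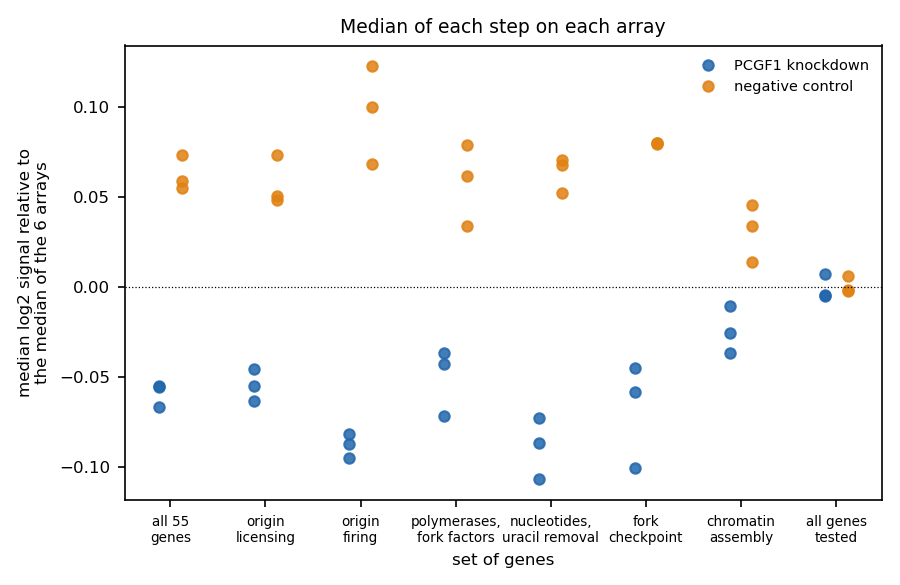
Median log2 signal, relative to the median of the 6 arrays, over all 55 genes, over each replication step and over all genes tested, with a point per array (blue, PCGF1 knockdown; orange, negative control). In each of the 6 steps the knockdown arrays lie below the control arrays, while the medians over all genes tested lie near 0 in both groups.

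Licensing genes form the first step, and 6 of the 15 fell, 0 rose and 9 did not pass, with a median log2 difference of -0.15. The counts of this and each later step stand beside 4.63% of all genes called lower and 6.36% higher. Groups that did not overlap stand beside 15.5% of all genes with knockdown lower and 17.1% with knockdown higher. ORC3, a core subunit of the origin recognition complex, was at -0.19, -0.06 and -0.17 in the knockdown arrays and at 0.14, 0.14 and 0.12 in the controls. The groups did not overlap, and ORC3 fell by 0.27 (SE 0.04, limma adjusted p = 0.00925). All 7 of its probe sets were lower and 5 passed on their own. ORC1, the largest ATP-binding subunit, was at -0.05, -0.12 and -0.10 against 0.05, 0.16 and 0.11. It fell by 0.20 (SE 0.04, adjusted p = 0.0294), a call kept without control replicate 1 and lost without any other array (adjusted p up to 0.0948). ORC5 was at -0.20, -0.09 and -0.07 against 0.05, 0.04 and 0.13. It fell by 0.19 (SE 0.05, adjusted p = 0.044), and the call was lost on leaving out any array (adjusted p up to 0.132). The other subunits did not pass, with log2 differences of -0.11 for ORC4, -0.07 for ORC6 and -0.04 for ORC2.

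Of the 6 MCM helicase subunits 3 fell, 0 rose and 3 did not pass. MCM6 was at -0.19, -0.12 and -0.06 in the knockdown arrays and at 0.06, 0.15 and 0.14 in the controls. It fell by 0.23 (SE 0.05, adjusted p = 0.0209), and its 3 probe sets ranged from -0.44 to -0.01. That call held without knockdown replicate 3 or control replicate 1 and ended when any other array was left out (adjusted p up to 0.0728). MCM7, at -0.10, -0.14 and -0.05 against 0.13, 0.04 and 0.07, fell by 0.18 (SE 0.04, adjusted p = 0.0438). MCM3, at -0.05, -0.12 and -0.09 against 0.05, 0.06 and 0.06, fell by 0.15 (SE 0.04, adjusted p = 0.0462). In all 3 genes the groups did not overlap, and the calls of MCM7 and MCM3 were lost on leaving out any array (adjusted p up to 0.12 and 0.124). MCM5 had a difference as large as these, -0.26 (95% interval -0.43 to -0.10), without passing (adjusted p = 0.0556). Its arrays spread more, at -0.23, -0.21 and -0.03 against 0.23, 0.03 and 0.05, and without knockdown replicate 3 it passed (-0.32, adjusted p = 0.0435). MCM4 did not pass as an average (-0.15, adjusted p = 0.0535), yet its 5 probe sets ranged from -0.52 to 0.02, and it passed without the probe sets ending in _s_at or _x_at (-0.25, adjusted p = 0.0111). MCM4 also passed with array weights (-0.16, adjusted p = 0.0387) and with its most variable probe set (-0.52, adjusted p = 0.00299). MCM2, at -0.02, -0.04 and 0.05 against 0.00, 0.00 and 0.04, overlapped between groups, and its difference of -0.01 had a 95% interval of -0.11 to 0.08.

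The loading factors and their inhibitor did not pass. CDC6, the ATPase that brings MCM rings to the origin complex, was lower on each knockdown array than on each control array, with a difference of -0.11 (95% interval -0.20 to -0.03, adjusted p = 0.0902). CDT1, which carries the MCM rings, had a difference of -0.04, and GMNN, which binds and blocks CDT1, one of -0.03, and the arrays of both groups overlapped in each.

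Firing factors turn the loaded rings into active helicases, and 4 of the 6 fell, with 0 rising and a median log2 difference of -0.23. GINS3 was at -0.09, -0.09 and -0.15 in the knockdown arrays and at 0.09, 0.18 and 0.21 in the controls, and fell by 0.27 (SE 0.05, limma adjusted p = 0.0101). CDC45, which bridges MCM and GINS, was at -0.17, -0.09 and -0.11 against 0.16, 0.08 and 0.12, and fell by 0.24 (SE 0.04, adjusted p = 0.0105). Its 3 probe sets agreed closely, from -0.28 to -0.21, and each passed on its own. GINS4 was at -0.10, -0.19 and -0.10 against 0.11, 0.10 and 0.13 and fell by 0.24 (SE 0.04, adjusted p = 0.0115). The GINS4 call rests on 3 probe sets ending in _s_at or _x_at, from -0.44 to -0.24, and its remaining probe set was at 0.08 and did not pass. GINS2, at -0.21, -0.05 and -0.07 against 0.12, 0.05 and 0.16, fell by 0.22 (SE 0.05, adjusted p = 0.0414), a call lost on leaving out any array (adjusted p up to 0.124). GINS1 and MCM10 did not pass. MCM10, a scaffold that binds the assembling helicase, was at -0.07, -0.07 and -0.01 against 0.00, 0.05 and 0.04, with a difference of -0.08 (95% interval -0.17 to 0.01), and the difference of GINS1 was -0.08 too. The groups did not overlap in any of the 6 firing genes, with knockdown lower in each. Of all genes 15.5% had their knockdown arrays all lower and 17.1% all higher.

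**Figure D3:**
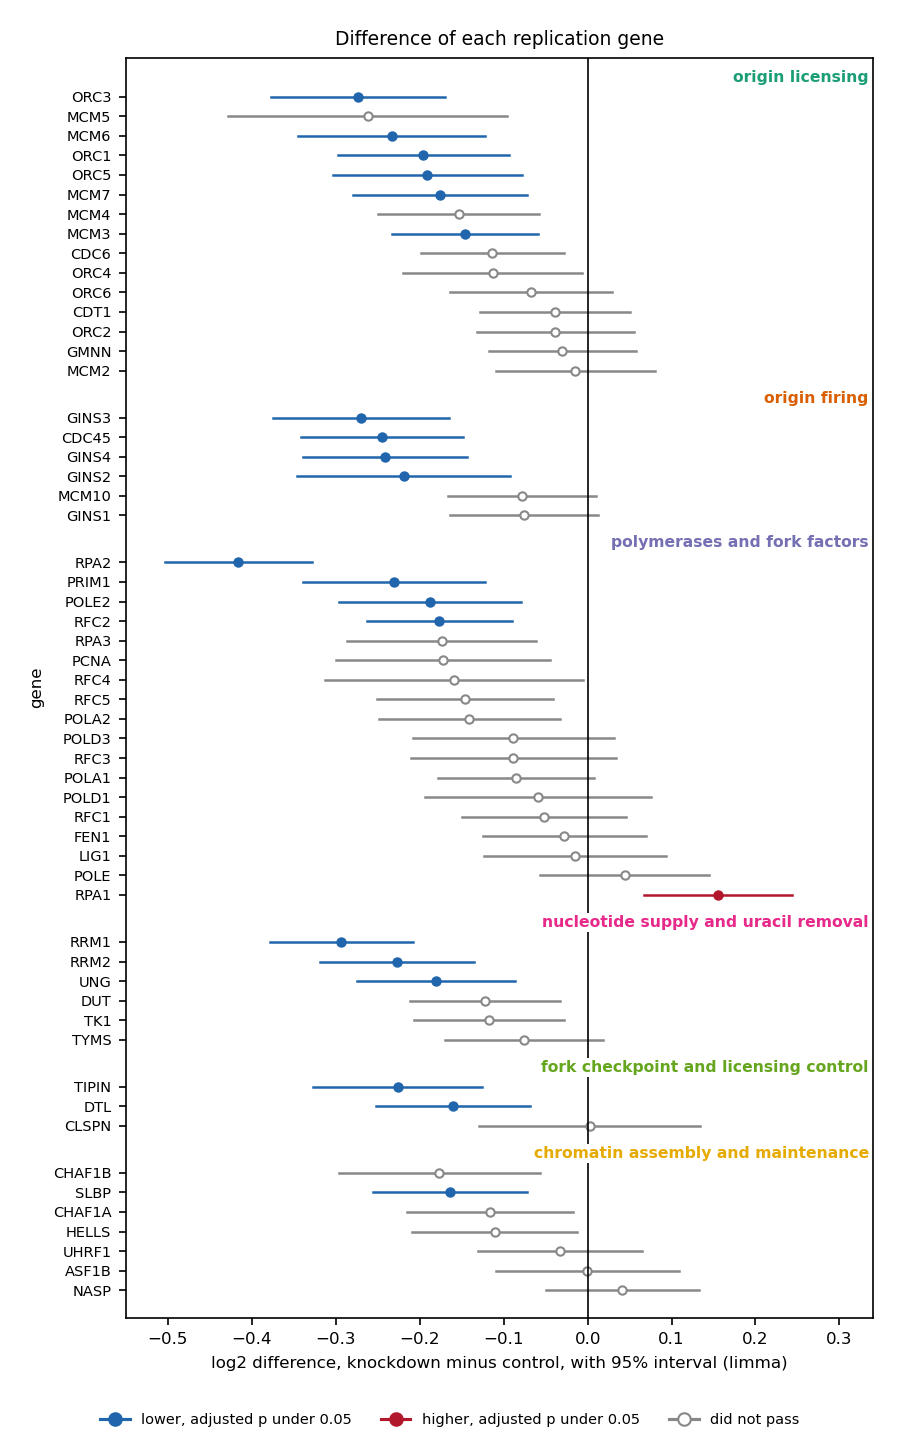
Log2 difference between knockdown and control for each of the 55 genes, with 95% limma intervals from 3 against 3 arrays, grouped by replication step and ordered by size within it. Filled points passed an adjusted p under 0.05 over all genes (20 lower in blue, RPA1 higher in red), and open points did not pass.

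Promoters of E2F-regulated genes often carry a recognisable motif, which was looked for in these genes. Promoter sequences of 300 bases, from 250 before to 50 after the gene start, were taken from RefSeq (GRCh38.p14) for 49 of the 55 genes by symbol, and MCM4, MCM5, GINS4, POLD3, RPA2 and RPA3 were not matched. The 4 spellings TTTCCCGC, TTTGGCGC, TTTCGCGC and TTTGCCGC were searched on both strands, and hits may overlap each other. Of the 49 promoters 22 held at least 1 of them (44.9%), against 4.55% of the 14425 promoters of genes tested and 3.31% of all 35116 promoters in the table. The CCAAT box, CCAAT on both strands, was in 61.2% of the 49 and 36.4% of promoters of genes tested, and the cell cycle homology spellings TTTGAA and TTTAAA in 10.2% and 19.2%. Falls were counted in genes with and without the E2F spellings. Of the 22 with the motif 8 fell (median log2 difference -0.11), and of the 27 without it 10 fell (median -0.12). These are descriptions of letters in a window, and a match is not a binding site. The promoters below are shown because MCM6, ORC3 and GINS3 fell and MCM2 did not pass, while all carry the motif; capitals mark E2F spellings on either strand, 5′ to 3′ along the gene.
MCM6, chr2:135876394-135876693, minus strand: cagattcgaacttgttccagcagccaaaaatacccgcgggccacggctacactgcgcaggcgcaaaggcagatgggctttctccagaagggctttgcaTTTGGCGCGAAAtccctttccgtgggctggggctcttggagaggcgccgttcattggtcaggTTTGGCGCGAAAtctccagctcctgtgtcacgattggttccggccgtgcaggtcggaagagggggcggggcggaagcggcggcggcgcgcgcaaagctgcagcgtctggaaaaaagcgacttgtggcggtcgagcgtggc
ORC3, chr6:87589885-87590184, plus strand: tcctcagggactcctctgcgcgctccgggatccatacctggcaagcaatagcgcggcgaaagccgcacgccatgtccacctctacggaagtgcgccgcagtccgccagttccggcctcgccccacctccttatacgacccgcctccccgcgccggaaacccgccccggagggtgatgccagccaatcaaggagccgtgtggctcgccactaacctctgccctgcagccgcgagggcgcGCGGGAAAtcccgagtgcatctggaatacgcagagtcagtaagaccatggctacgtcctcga
GINS3, chr16:58392221-58392520, plus strand: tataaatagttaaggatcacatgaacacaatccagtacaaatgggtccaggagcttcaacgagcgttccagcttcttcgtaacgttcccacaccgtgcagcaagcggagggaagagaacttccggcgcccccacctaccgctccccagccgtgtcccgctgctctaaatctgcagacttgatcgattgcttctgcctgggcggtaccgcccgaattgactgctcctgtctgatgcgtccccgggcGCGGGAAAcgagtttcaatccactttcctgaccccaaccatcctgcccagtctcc
MCM2, chr3:127598161-127598460, plus strand: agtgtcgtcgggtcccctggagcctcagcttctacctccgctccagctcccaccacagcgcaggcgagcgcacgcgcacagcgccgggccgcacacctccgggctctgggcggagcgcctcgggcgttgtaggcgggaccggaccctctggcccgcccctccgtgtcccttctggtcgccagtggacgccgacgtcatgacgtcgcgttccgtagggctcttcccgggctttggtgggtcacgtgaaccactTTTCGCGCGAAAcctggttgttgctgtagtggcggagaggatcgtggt
The MCM6 promoter holds 2 overlapping pairs of hits, beginning 152 and 90 bases before the gene start, and the MCM2 promoter 1 such pair just after the start. The single hits of ORC3 and GINS3 begin 12 and 5 bases before it.

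Polymerases and fork factors, the largest step, had 4 of 18 genes falling, 1 rising and 13 not passing, with a median log2 difference of -0.11. The widest contrast lay within RPA, the 3-subunit complex that coats single-stranded DNA. RPA2, its middle subunit, was at -0.23, -0.25 and -0.19 in the knockdown arrays and at 0.18, 0.18 and 0.21 in the controls. It fell by 0.42 (SE 0.04, limma adjusted p = 0.000832) to 74.9% of the control level, the largest fall of the 55 genes, and all 3 of its probe sets passed, from -0.55 to -0.28. RPA1, the large DNA-binding subunit, was at 0.08, 0.07 and 0.12 against -0.06, -0.10 and -0.05, and rose by 0.16 (SE 0.04, adjusted p = 0.0389). The RPA1 call was lost on leaving out any array (adjusted p up to 0.122) and without its probe set ending in _s_at (0.12, adjusted p = 0.203). With genes represented by their most variable probe sets, for RPA1 the one ending in _s_at, it was lost too (0.19, adjusted p = 0.0815). Both of its probe sets were higher, at 0.12 and 0.19, and the second passed when all probe sets were tested (limma adjusted p = 0.0484). RPA3, the small subunit, was at -0.16, -0.04 and -0.06 against 0.12, 0.04 and 0.12, a difference of -0.17 that did not pass (adjusted p = 0.06, and adjusted p = 0.0492 after quantile normalization). The 95% intervals of RPA1 (0.07 to 0.24) and RPA2 (-0.50 to -0.33) lie on opposite sides of 0.

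DNA synthesis is begun by polymerase alpha with its primase. PRIM1, the catalytic primase subunit, was at -0.12, -0.06 and -0.14 in the knockdown arrays and at 0.06, 0.15 and 0.18 in the controls. It fell by 0.23 (SE 0.05, adjusted p = 0.0202), a call that held without knockdown replicate 2 or control replicate 1 and ended when any other array was left out (adjusted p up to 0.074). POLA1 and POLA2, the catalytic and accessory polymerase subunits, had differences of -0.09 and -0.14 and did not pass, though their knockdown arrays were all below the controls. Of the polymerases that copy most of the genome, POLE2, the second subunit of polymerase epsilon, was at -0.13, -0.15 and -0.04 against 0.04, 0.06 and 0.14. It fell by 0.19 (SE 0.05, adjusted p = 0.0408), and the call was lost on leaving out any array (adjusted p up to 0.125). The catalytic subunits did not pass, POLE at 0.04 (95% interval -0.06 to 0.15) and POLD1 at -0.06 (-0.19 to 0.08), nor did POLD3 at -0.09.

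Of the sliding clamp and the 5 subunits of its loader, 1 fell and 0 rose. RFC2, a subunit of the RFC clamp loader, was at -0.08, -0.06 and -0.08 in the knockdown arrays and at 0.12, 0.12 and 0.06 in the controls, and fell by 0.18 (SE 0.04, adjusted p = 0.0235). Its call was kept without control replicate 3 and lost without any other array (adjusted p up to 0.0807). RFC4, RFC5, RFC3 and RFC1 had differences of -0.16, -0.15, -0.09 and -0.05 and did not pass. RFC3 shows how far probe sets can disagree, its 4 ranging from -0.31 to 0.19. RFC3 and RFC4 passed with their most variable probe sets (-0.31 and -0.30, adjusted p = 0.0264 and 0.0271), and RFC5 passed without those ending in _s_at or _x_at (-0.22, adjusted p = 0.027). PCNA, the clamp itself, was at -0.10, -0.02 and -0.09 against 0.21, 0.07 and 0.03, a difference of -0.17 (95% interval -0.30 to -0.04, adjusted p = 0.0874). One of its probe sets passed on its own (-0.19, limma adjusted p = 0.0475) and the other did not (-0.15, adjusted p = 0.393). FEN1 and LIG1, which trim and join Okazaki fragments, had differences of -0.03 and -0.01, and their groups overlapped.

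**Figure D4:**
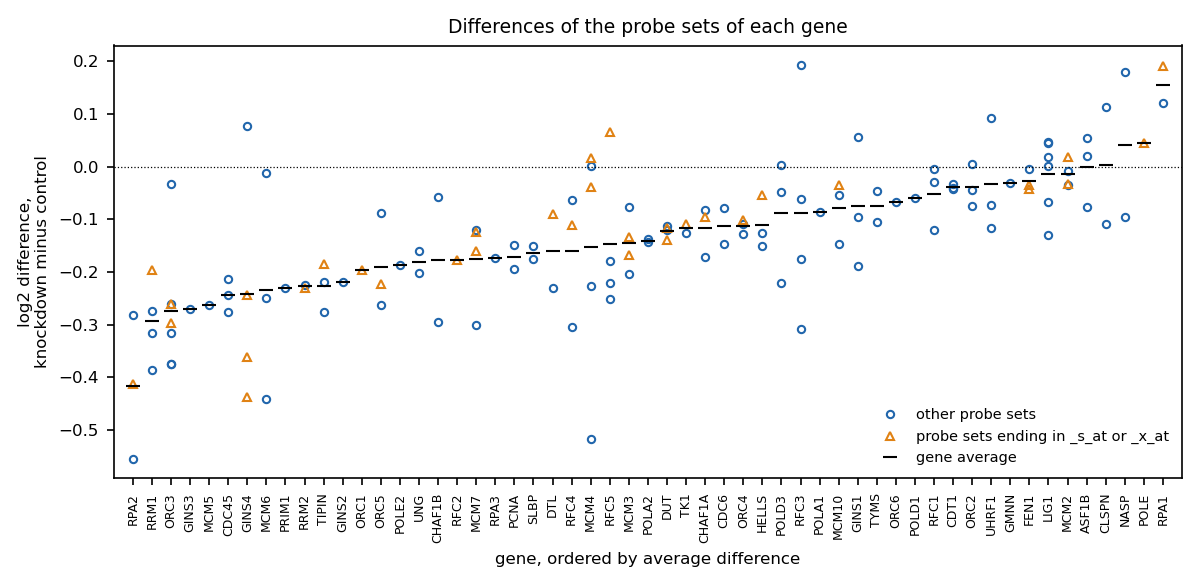
Log2 difference between knockdown and control for each of the 143 probe sets, by gene, with genes ordered by their average (black dash); triangles are the probe sets ending in _s_at or _x_at, circles all others. Probe sets of GINS4, MCM4, RFC3 and NASP span 0, while those of RPA2, RRM1 and CDC45 lie all below it.

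Of the 6 genes of nucleotide supply and uracil removal 3 fell, 0 rose and 3 did not pass, with a median log2 difference of -0.15. Both subunits of ribonucleotide reductase, the enzyme that makes deoxyribonucleotides, fell. RRM1, the large subunit, was at -0.14, -0.13 and -0.14 in the knockdown arrays and at 0.17, 0.18 and 0.13 in the controls, with no overlap. It fell by 0.29 (SE 0.04, limma adjusted p = 0.00301) to 81.6% of the control level, and all 4 probe sets passed. RRM2, the small subunit whose level limits the enzyme in S phase, was at -0.08, -0.09 and -0.16 against 0.11, 0.14 and 0.10. It fell by 0.23 (SE 0.04, adjusted p = 0.0116), with both probe sets near -0.23, and did not pass when genes were represented by their most variable probe sets (adjusted p = 0.0609). UNG, which removes uracil from DNA, was at -0.17, -0.12 and -0.06 against 0.06, 0.07 and 0.06. It fell by 0.18 (SE 0.04, adjusted p = 0.0293), a call kept without knockdown replicate 3 and lost without any other array (adjusted p up to 0.0881). The thymidine branch did not pass. DUT, which removes dUTP, was at -0.06, -0.04 and -0.11 against 0.06, 0.06 and 0.02, a log2 difference of -0.12 (95% interval -0.21 to -0.03, adjusted p = 0.084). Thymidine kinase TK1 had a difference of -0.12 and thymidylate synthase TYMS one of -0.08, and their groups did not overlap.

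Fork checkpoint and licensing control genes gave 2 falls among 3 genes. TIPIN, which with TIMELESS stabilises forks, was at -0.10, -0.05 and -0.11 in the knockdown arrays and at 0.16, 0.18 and 0.08 in the controls, and fell by 0.23 (SE 0.04, adjusted p = 0.0163). Its call held without knockdown replicate 2 or control replicate 3 and ended when any other array was left out (adjusted p up to 0.0623). DTL, the ubiquitin ligase adaptor that removes CDT1 in S phase, was at -0.02, -0.10 and -0.10 against 0.08, 0.08 and 0.10. It fell by 0.16 (SE 0.04, adjusted p = 0.04), kept without knockdown replicate 1 and lost without any other array (adjusted p up to 0.123). CLSPN, the adaptor that activates the checkpoint kinase CHK1, was at -0.06, 0.02 and 0.05 against 0.07, -0.11 and 0.03. Its groups overlapped widely, and the 95% interval of its difference was -0.13 to 0.13.

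Among the chromatin assembly and maintenance genes 1 of 7 fell, with 0 rising and a median log2 difference of -0.11. SLBP, which binds the stem-loop of histone transcripts, was at -0.12, -0.03 and -0.09 in the knockdown arrays and at 0.08, 0.10 and 0.08 in the controls. It fell by 0.16 (SE 0.04, adjusted p = 0.0378), a call kept without knockdown replicate 2 and lost without any other array (adjusted p up to 0.11). The CAF-1 chaperone, which places new histones behind the fork, did not pass in either subunit measured. CHAF1B was at -0.21, -0.05 and -0.08 against 0.07, 0.01 and 0.09, a difference of -0.18 (95% interval -0.30 to -0.06, adjusted p = 0.0677, and -0.30 with adjusted p = 0.0285 for its most variable probe set), and CHAF1A had one of -0.12. HELLS, a chromatin remodeller, and UHRF1, which guides maintenance DNA methylation, had differences of -0.11 and -0.03. The histone chaperones ASF1B and NASP had differences of 0.00 (95% interval -0.11 to 0.11) and 0.04 (-0.05 to 0.13), and the 2 probe sets of NASP disagreed, at -0.10 and 0.18. Whether the steps differ from each other was not tested.

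Single probe sets were tested as well. Of the 143 probe sets 122 were below 0 (85.3%, and 51.8% of all probe sets), 35 were called lower (24.5%) and 1 higher, where 2.94% of all 49293 probe sets were called lower and 4.3% higher. Among the 42 genes with several probe sets, 29 had all of them on the same side of 0 and 13 did not. Of the 21 called genes, only GINS4 had probe sets on both sides.

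Other genes of replication and nucleotide metabolism were counted in the same way, and this list too was chosen with earlier results of these data known. Of 96 such genes measured outside the 55, 15 fell (15.6%, against 4.63% of all genes), 0 rose (6.36% of all genes) and 81 did not pass, and the median log2 difference was -0.07. At an unadjusted p under 0.05 (limma), 36 of the 96 were lower and 2 higher, against the same 12.4% and 14.2% of all genes. The 15 falls became 5 to 7 on leaving out any one array. PRIM2, the regulatory primase subunit and partner of PRIM1, was at -0.18, -0.14 and -0.16 in the knockdown arrays and at 0.14, 0.22 and 0.21 in the controls. It fell by 0.36 (SE 0.04, limma adjusted p = 0.00199). DCK, a deoxynucleoside salvage kinase, fell by 0.27 and NT5E, an ectonucleotidase, by 0.26. RNASEH2A, which removes RNA from DNA, fell by 0.23, as did DBF4, the activator of the CDC7 kinase that fires origins. With most variable probe sets neither passed (adjusted p = 0.0534 and 0.0505), and DBF4 did not pass without those ending in _s_at or _x_at (-0.18, adjusted p = 0.142). MCM8, a helicase related to the MCM ring, fell by 0.21, and its call was kept without control replicate 3 and lost without any other array (adjusted p up to 0.0793). By role, 4 of 15 further licensing and firing factors, 3 of 21 polymerase and fork factors, 5 of 24 nucleotide enzymes and 1 of 10 histone chaperones and methylation factors fell, where 4.63% of all genes did.

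The E2F, RB and DREAM regulators and their cyclin partners, which control these genes, mostly did not pass. Of 26 genes 2 fell and 0 rose, and at this adjusted threshold the 7.69% lower is near the 4.63% of all genes. The median log2 difference was -0.03. At an unadjusted p under 0.05 (limma), 7 of the 26 were lower (26.9%) and 0 higher, against 12.4% and 14.2% of all genes. In 9 of the 26 (34.6%) each knockdown array was below each control array, and in 2 the reverse held. Of all genes 15.5% and 17.1% did so. RBL1, the pocket protein p107, and CCNE2, cyclin E2, both fell by 0.16 (SE 0.04 each, adjusted p = 0.0355 and 0.0457). The call of RBL1 was kept without knockdown replicate 2 and lost without any other array (adjusted p up to 0.109), and that of CCNE2 was lost without any array (adjusted p up to 0.13). Among genes chosen after their values were seen, E2F1, an activator of S phase entry, had a difference of -0.10 (adjusted p = 0.354). CDKN1A, the inhibitor p21, had one of 0.09 (adjusted p = 0.205). E2F7 had the largest difference of the group, -0.20 (adjusted p = 0.0754), and none of them passed.

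**Figure D5:**
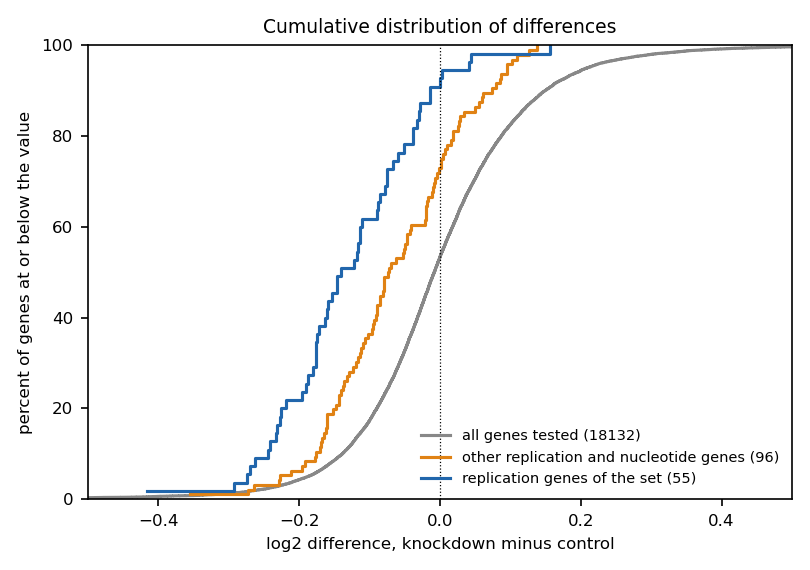
Percent of genes at or below each log2 difference between knockdown and control, for the 55 replication genes (blue), 96 other replication and nucleotide genes (orange) and all 18132 genes tested (grey); the horizontal axis ends at -0.5 and 0.5. The medians are -0.14, -0.07 and -0.01.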

How the data were processed

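Total RNA of 3 PCGF1 knockdown and 3 control samples was hybridised as biotin-labelled cRNA. The deposited log2 values were made with RMA, per the submitters' processing notes, with no version given. The log base is not recorded and is taken from the naming of RMA. Each probe set was found centred on the median of its 6 arrays (largest departure 4.85e-07), a step not given in the sources used here. No filter on dim probe sets was therefore possible.

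The members and gene lists were chosen with earlier results of these data known. After 102 control probe sets were left out, 44988 probe sets with 1 gene symbol in the platform annotation were averaged to 18132 genes; 1 probe set shared by TIPIN and other genes was left out. Groups were compared with limma 3.58.1 under R 4.3.3, using lmFit, eBayes and two-sided tests without covariates, with Benjamini-Hochberg adjustment over all genes and a threshold of 0.05. Intervals are 95%. The number of arrays limits the precision. The fit was tested on simulated data whose differences were larger than that of any of these replication genes. It therefore does not show how well differences of their size are found.

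Genes were named by rule: PCGF1, all members by step with array values for called members and the largest uncalled member of each step, and of the wider list the 6 largest called falls and the called genes of its E2F, RB and DREAM group. E2F1, E2F7, CDKN1A and the array values of MCM2 and PCNA were chosen after their values were seen. Alternatives were quantile normalization, array centring, array weights, the replicate block, other choices of probe sets, robust eBayes and leaving out each array.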

Additional observations from a re-analysis of the deposited data

How the results depend on the processing

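Quantile normalization, centring of arrays, array weights and robust eBayes gave 20 or 21 replication genes lower and 1 higher. Single probe sets gave 19 and 1 genes with a called probe set, but the 19 were partly other genes. They include MCM4, PCNA, RFC3, RFC4, RFC5 and CHAF1B, which did not pass as averages. Of the genes that fell, ORC1, ORC5, MCM7, GINS2, POLE2, RFC2 and SLBP had no probe set that passed on its own. Lower calls dropped to 13 without probe sets ending in _s_at or _x_at and to 11 with genes represented by their most variable probe sets, each with 0 higher. The median log2 difference was then -0.13 and -0.18. The first of these settings left ORC1, RFC2 and POLE without a value. Leaving out 1 array gave 7 to 10 genes lower, 0 higher and medians from -0.14 to -0.13. Of the 21 called genes, 7 kept their call in all 6 such fits, and ORC3, CDC45, GINS3, RPA2 and RRM1 kept it in these and the other alternatives. Replicate numbers did not pair the arrays (correlations of deviations -0.042, -0.0511 and 0.0116, and not every array correlated best with its own number). With the replicate number as a block, which leaves fewer degrees of freedom, 9 replication genes were lower and 0 higher, and 5 genes of the wider list lower, while the number lower among all genes went from 840 to 440. That wider list had 9 lower with the most variable probe sets and 5 to 7 on leaving out 1 array. PCGF1 passed throughout, at -0.48 to -0.39 on leaving out 1 array. With 1 probe set, its difference could not change with the choice of probe sets. GINS4 turned to 0.0767 without probe sets ending in _s_at or _x_at. Differences near 0 changed sign: on leaving out 1 array MCM2 ranged from -0.0412 to 0.0046, LIG1 from -0.0478 to 0.0188, CLSPN from -0.0513 to 0.0392 and ASF1B from -0.0242 to 0.04, and ASF1B was at 0.0207 with its most variable probe set. The cause was not tested. A filter on dim probe sets was not run, since the values are centred.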
